A study of Mus musculus with 81 samples.

Results

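The genes of histone H3.3 were targeted for deletion in mouse myeloid cells, and the RNA of the mitochondrial genome was followed in the resulting macrophages and their precursors. The genes described here are 10 protein genes of that genome, listed by symbol: mt-Nd1, mt-Nd2, mt-Nd3, mt-Nd4, mt-Nd5, mt-Nd6, mt-Cytb, mt-Co1, mt-Co2 and mt-Co3. They are 10 of the 13 protein genes of the mitochondrial genome and 10 of the 55450 genes listed in the files of the time course. They were chosen by the level of mt-Nd2 on day 3 of culture, where it was low in cells of the conditional knockout of H3.3 (cKO). The comparison of genotypes on day 3 is therefore given as a description, without a test. Of the 10 genes, 7 had unique reads in every library and 3 were near 0.

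The mitochondrial genome is a small circle that is present in many copies per cell and encodes a few core subunits of the respiratory chain, along with its own ribosomal and transfer RNAs. Complex I takes electrons from NADH, complex III passes them to cytochrome c and complex IV hands them to oxygen, and the proton gradient they build drives ATP synthase. All remaining subunits are encoded in the nucleus and imported. Both strands of the circle are transcribed as long precursors that are cut into single RNAs, so the level of each RNA reflects shared transcription as well as its own processing and decay. Macrophages are known to shift the use of the respiratory chain when they are activated, for example by interferons. The mt-Nd genes encode subunits of complex I, mt-Cytb encodes cytochrome b of complex III, and mt-Co1, mt-Co2 and mt-Co3 encode the catalytic core of complex IV.

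In build GRCm38 mt-Nd1 lies at chrM:2751-3707, mt-Nd2 at chrM:3914-4951, mt-Co1 at chrM:5328-6872, mt-Nd4 at chrM:10167-11544, mt-Nd5 at chrM:11742-13565 and mt-Cytb at chrM:14145-15288, all protein-coding genes without introns on the forward strand. The mt-Nd6 gene lies on the reverse strand at chrM:13552-14070. Copies of mitochondrial sequence also lie in the nuclear genome, where they are annotated as pseudogenes. The gene counts used here hold only reads that aligned to a single place. The first pair of sequences below, from GENCODE transcripts of GRCm38, is shown because mt-Co2 and its nuclear copy cannot be told apart over their first 30 bases. The second pair is shown because mt-Nd2, the gene that led to the choice, can be told from its copy by the 3 bases in capitals (bases 752 to 781 of mt-Nd2). The third pair gives the last 30 bases of mt-Nd5 and of mt-Nd6, with capitals for the 14 bases that both genes use on opposite strands.
mt-Co2: atggcctacccattccaacttggtctacaa
Gm28661: atggcctacccattccaacttggtctacaa
mt-Nd2: taggaggCcttccaccactaacaggattCT
Gm13339: taggaggTcttccaccactaacaggattTC
mt-Nd5: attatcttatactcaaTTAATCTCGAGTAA
mt-Nd6: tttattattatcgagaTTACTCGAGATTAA

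The amount of sequence shared with nuclear copies differed between the genes. Of all windows of 50 bases, 100% of mt-Co2, 99.9% of mt-Co3 and 98.0% of mt-Nd3 also occurred in another annotated gene. These were the 3 listed genes near 0: across all 81 libraries their counts ranged from 0 to 9, from 0 to 4 and from 0 to 34. Among the other protein genes, mt-Atp6 and mt-Nd4l shared 99.5% and 98.8% of windows and had counts of at most 5 and 1. The counts of mt-Atp8 were at most 4, with 0% of its windows in another annotated gene. Only annotated transcripts were searched, so a copy outside them would not be seen. A block of 7 copies, with parts of mt-Nd4 (876 bases) and mt-Co1 (483 bases) at its ends and mt-Nd4l, mt-Nd3, mt-Co3, mt-Atp6 and mt-Co2 between them, lies at chr1:24611535-24616197 and spans 4663 bases. In this block the copy of mt-Atp6 ends at base 24614651 and that of mt-Co2 starts at base 24614885. On chrM, mt-Atp8 starts between mt-Co2 and mt-Atp6, and the stretch of the block between their copies was not searched. Gm28661, the copy of mt-Co2 in this block, matched at 100% over 681 bases and itself had counts of 0 to 7. Gm13339, the copy of mt-Nd2 at chr2:22590024-22590533, matched at 96.7% over 510 bases with 17 mismatches. For mt-Nd2 8.19% of windows were shared, for mt-Nd5 7.61%, for mt-Co1 51.1% and for mt-Nd4 62.2%, while mt-Nd1, mt-Nd6 and mt-Cytb shared 0%. The median counts of these 7 measured genes lay between 4015 (mt-Nd6) and 69221 (mt-Co1). Low counts of mt-Co2, mt-Co3 and mt-Nd3 therefore cannot be read as low expression, and the share of reads lost to the copies was not tested.

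**Figure D1:**
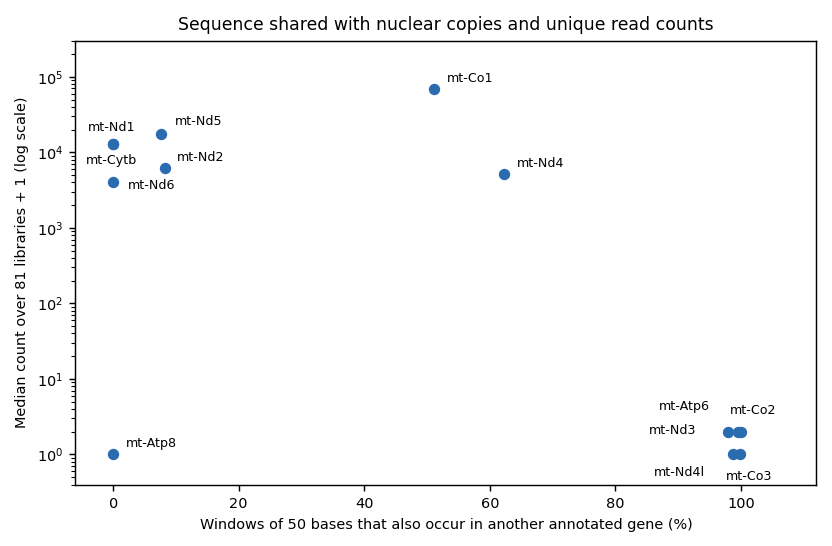
Share of 50-base windows of each protein gene of the mitochondrial genome that also occur in another annotated gene (x axis, percent), against the median unique count + 1 over 81 libraries (y axis, log scale), 1 point per gene. Of the 6 genes near 0, 5 sit at 98% or more, mt-Atp8 sits at 0%, and the 7 measured genes lie between 0% and 62.2%.

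WT mice carried H3f3a fl/fl and H3f3b fl/fl without Cre, and cKO mice carried the same floxed alleles with LysM cre/cre, in which Cre is driven from the Lyz2 locus of myeloid cells, all on C57BL/6. Bone marrow of young adult male and female mice was grown into bone marrow-derived macrophages (BMDMs) in medium conditioned by L929 cells, a source of the growth factor M-CSF. The double KOs H3.3cKO:StingKO, H3.3cKO:MavsKO and H3.3cKO:Irf7KO carry the cKO alleles and lack a further gene of innate immune signalling in every cell. These libraries hold no counterpart of them with the H3.3 genes intact. RNA was sequenced in 5 experiments: WT and cKO on days 3, 5 and 7 of culture, BMDMs on day 8 with or without interferon-γ (IFNγ) for 12 h, BMDMs left without antibody, given control antibody or given an antibody that blocks the type I interferon receptor chain IFNAR1, 3 sets of WT and cKO BMDMs with the double KOs, and peritoneal macrophages taken directly from the animal. BMDM libraries were made after depletion of ribosomal RNA, and for peritoneal macrophages the study's methods name another kit while the labels name the same one. Each group had 3 libraries labelled as biological replicates, except the cKO groups of day 8 with 2. For 2 further day 8 libraries the labels conflict on IFNγ, and they enter no comparison. The p-values measure the spread between these libraries.

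Counts on genes ranged from 14419697 to 20220329 per library in the time course, from 3614967 to 9879339 on day 8, from 5295144 to 34380735 in the antibody experiment, from 21504555 to 45581528 in the BMDM sets and from 7625225 to 23381318 in peritoneal macrophages. H3f3a and Lyz2 were lower in every cKO group than in its WT group. In the time course Lyz2 was at 4.57 to 19.4 CPM in cKO and 5928 to 13952 CPM in WT. Since WT mice had no Cre, H3.3 deletion, Cre and the loss of Lyz2 RNA cannot be told apart in comparisons of cKO with WT. H3f3b, the other H3.3 gene, stayed at 149 to 222 CPM in the cKO of the time course against 181 to 280 CPM in WT. Among the cKO groups it was clearly low only in the antibody experiment, at 16.7 to 67.8 CPM against 295 to 468 CPM in WT. In H3.3cKO:Irf7KO it was at 71.9 to 147 CPM, against 187 to 220 CPM in the cKO sets. The 8 macrophage markers were all detected in every group, although the cells on day 3 also held neutrophil markers at a summed 1571 to 3675 CPM and progenitor markers at 465 to 1242 CPM. Some libraries stood apart in the genes described here. The smallest, cKO day 8 IFNg replicate 1, had 16.3% of the counts of the 13 protein genes on mt-Co1 and 17.5% on mt-Nd6, against at least 44.0% and at most 8.15% in the other BMDM and bone marrow libraries. In this library 57.1% of reads were unmapped, against 12.6 to 18.3% in the other libraries of day 8. WT set 1 replicate 3 had a summed level of 3015 CPM against 8909 and 9131 CPM in replicates 1 and 2, in a group with 10.4 to 17.5% multimapping reads, whose part was not tested. For the genes described here, results that rest on these libraries are given with and without them. Those of nuclear genes are given only with them.

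Levels are given as CPM, in which a gene's count is divided by all counts on genes so that libraries of different depth can be compared, with a further scaling between libraries by TMM. Per kilobase of gene, mt-Co1 was the highest of the 7 measured genes in the time course (median 2758 CPM per kb), followed by mt-Nd1 (1210), mt-Cytb (995), mt-Nd5 (717), mt-Nd6 (614), mt-Nd2 (527) and mt-Nd4 (297). From library to library mt-Nd2 ranged from 109 to 783 CPM per kb and mt-Nd6 from 424 to 1013 CPM per kb, so the neighbours in this order overlapped. The whole length was used, yet 62.2% of the windows of mt-Nd4 and 51.1% of those of mt-Co1 also occur in another annotated gene. The order is therefore one of unique reads, and the last place of mt-Nd4 cannot be read as low expression. The kit did not mark strand, since the totals of the strand columns had ratios of 0.995 to 1.03. For mt-Nd5 and mt-Nd6, whose ends overlap on opposite strands, the strand columns together exceeded the unstranded column 1.05 to 1.2 times and 1.2 to 2.78 times. Reads from the shared end cannot be assigned to either gene. Elsewhere in mt-Nd6, the only member on the reverse strand, its reads cannot be told from those of RNA of the opposite strand. Values of mt-Nd6, also the shortest measured member, are therefore less certain than the others.

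On day 3, the values that led to the choice, mt-Nd2 had 500, 354 and 283 CPM in WT and 113, 138 and 292 CPM in cKO. The groups overlapped, since replicate 3 of the cKO lay just above replicate 3 of WT. The log2 fold change of cKO against WT was -1.06 (SE 0.33). Beside it, mt-Nd1 differed by -1.05 (SE 0.29), mt-Cytb by -1.03 (SE 0.32) and mt-Nd4 by -0.90 (SE 0.28), and in these 3 genes the groups did not overlap. For mt-Nd5 the log2 fold change was -0.68 (SE 0.22), also without overlap. It was -0.50 (SE 0.23) for mt-Co1 and -0.19 (SE 0.18) for mt-Nd6, where the groups overlapped. The low level on day 3, in the values that led to the choice, was thus seen in several of the genes and not in mt-Nd2 alone. In the same libraries the progenitor markers summed to 857 to 1242 CPM in cKO and 465 to 784 CPM in WT, the neutrophil markers to 2406 to 3675 and 1571 to 2919 CPM, and the proliferation genes to 1411 to 1527 and 1762 to 2386 CPM, and their part in these levels was not tested. In bulk RNA, fewer cells of a type and less RNA per cell cannot be told apart.

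On day 5 all 7 genes were lower in each cKO library than in each WT library, but none passed the test. The level of mt-Nd2 was 813, 723 and 782 CPM in WT and 351, 529 and 581 CPM in cKO. Cytochrome b RNA (mt-Cytb) had 1466, 1734 and 1737 CPM in WT and 651, 1145 and 1268 CPM in cKO. The log2 fold changes ran from -0.75 (mt-Nd4, SE 0.28) to -0.42 (mt-Co1, SE 0.23), that is 0.595 to 0.749 times the WT level. In edgeR's quasi-likelihood test with Benjamini-Hochberg adjustment over all genes, 0 of 7 genes were called at an adjusted p under 0.05, against 2.83% of all genes, while 5 of 7 had an unadjusted p under 0.05 and DESeq2 called 1. With the replicate number as a block, mt-Nd6 was called (log2 fold change -0.58, adjusted p = 0.0213). Progenitor markers again separated the genotypes (181 to 462 CPM in cKO against 54.4 to 85.1 CPM in WT), as did stromal markers (67.7 to 95.4 against 13.2 to 42.3 CPM) and proliferation genes (1900 to 2708 against 2747 to 2851 CPM), and their part was not tested.

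By day 7 the genotypes overlapped in each of the 7 genes. For mt-Nd2 WT had 566, 680 and 799 CPM and cKO had 375, 654 and 741 CPM. The log2 fold changes lay between -0.22 (mt-Nd1) and -0.15 (mt-Nd6), 0 of 7 were called against 1.4% of all genes, and 0 had an unadjusted p under 0.05, nor did DESeq2 call any. The change of the cKO effect from day 5 to day 7 was tested as an interaction and called 0 of 7 genes, against 0% of all genes, with 0 at an unadjusted p under 0.05 and 0 in DESeq2. For mt-Nd2 this change was 0.46 (SE 0.46) on the log2 scale.

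Between day 3 and day 5 of culture, the values of both genotypes are a description, since the genes were chosen on the day 3 libraries of cKO and WT. The choice of mt-Nd2 for its low level in cKO on day 3 also touches the genes that vary with it across these libraries. The level of mt-Nd2 in cKO went from 113, 138 and 292 CPM on day 3 to 351, 529 and 581 CPM on day 5 (log2 fold change 1.43, SE 0.33). For mt-Nd1 the log2 fold change was 1.12 (SE 0.29) and for mt-Nd4 1.09 (SE 0.29). The libraries of both days did not overlap in mt-Nd1 and mt-Nd2 but overlapped in mt-Nd4. The model put these 3 of 7 genes past its threshold, beside 1.35% of all genes called higher, from which nothing is read. With the replicate block it was 6 and with only the cKO groups of these days in the model 0. It was 0 without cKO day 3 replicate 1 or replicate 2 or cKO day 5 replicate 2 or replicate 3, 5 without cKO day 3 replicate 3 and 6 without cKO day 5 replicate 1. In WT all 7 genes were higher in each library of day 5 than of day 3, by log2 fold changes of 0.59 (mt-Nd6) to 1.03 (mt-Nd2). The edgeR model put 0 of them past its threshold, beside 2.64% of all genes, with adjusted p from 0.0885 to 0.183. All 7 had an unadjusted p under 0.05, and DESeq2 called 5. With only the WT groups of these days in the model, 6 were called. Nothing is read from these WT counts either, since the WT libraries of day 3 were part of the choice. Whether the step differed between genotypes was not tested. The summed level of the 13 genes went from 7614 ± 1159 CPM on day 3 to 12718 ± 298 CPM on day 5 in WT (SD, n = 3), and from 4784 ± 1418 to 8724 ± 1889 CPM in cKO. Over this step the neutrophil markers went from 1571 to 2919 CPM to 576 to 629 CPM in WT and from 2406 to 3675 CPM to 477 to 1590 CPM in cKO. Progenitor markers went from 465 to 784 CPM to 54.4 to 85.1 CPM in WT and from 857 to 1242 CPM to 181 to 462 CPM in cKO. Proliferation genes were higher on day 5, at 2747 to 2851 CPM in WT and 1900 to 2708 CPM in cKO, and the part of these genes was not tested.

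From day 5 to day 7 no gene was called in either genotype. In WT the log2 fold changes lay between -0.58 (mt-Nd6) and -0.18 (mt-Nd2), with 0 of 7 called against 0.238% of all genes, 1 at an unadjusted p under 0.05 and 1 in DESeq2. The cKO had log2 fold changes of -0.17 (mt-Nd6) to 0.28 (mt-Nd2), with 0 of 7 called against 0.0564% of all genes, 0 at an unadjusted p under 0.05 and 0 in DESeq2. Within the time course, mt-Nd6 had the lowest log2 fold change in each of these steps of either genotype. Over the 18 libraries, log2 CPM of mt-Nd2 had a Pearson correlation of 0.99 with mt-Nd1, 0.98 with mt-Nd4, 0.96 with mt-Co1, 0.96 with mt-Cytb and 0.94 with mt-Nd5, but 0.56 with mt-Nd6. These points share libraries and scaling, and the correlations are descriptions. Outside the mitochondrial genome, the genes most like mt-Nd2 among 9053 genes were Gtf3c2 (0.97), which encodes a subunit of the RNA polymerase III factor TFIIIC, Qser1 (0.96), Kdelc2 (0.95), Ptpra (0.95), a receptor tyrosine phosphatase, and Manea (0.94), a Golgi mannosidase.

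**Figure D2:**
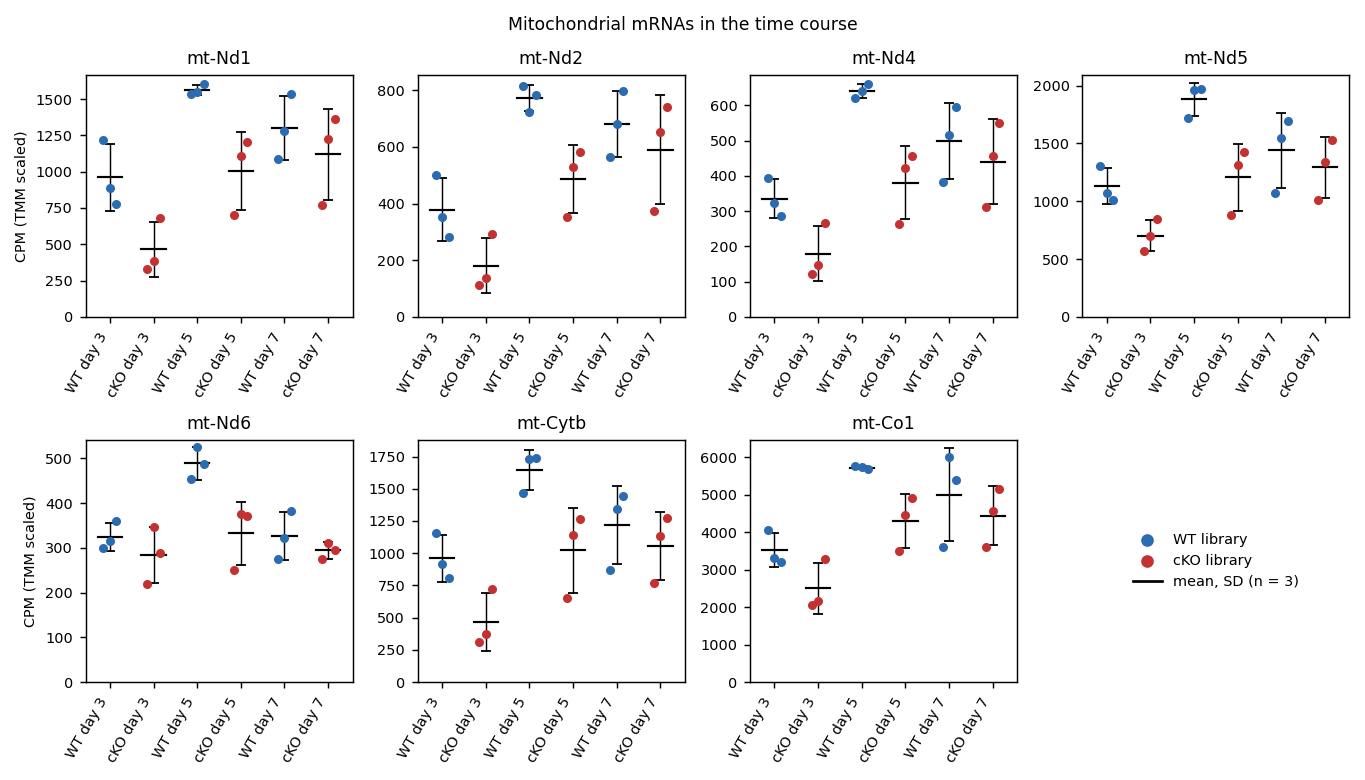
Level (CPM, TMM scaled, y axis) of mt-Nd1, mt-Nd2, mt-Cytb, mt-Co1 and mt-Nd6 on days 3, 5 and 7 of culture (x axis) in WT and cKO, with points for libraries and bars for mean and SD (n = 3). On day 5 all cKO libraries lie below all WT libraries, with mt-Nd2 at 351 to 581 CPM against 723 to 813 CPM, and on day 7 the genotypes overlap.

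The nuclear partners of these genes were tested in the same libraries. Of 36 nuclear complex I subunits, 35 nuclear subunits of complexes III and IV and ATP synthase, 28 tested factors of mitochondrial transcription and RNA processing and 8 factors that copy mitochondrial DNA, edgeR called 0 in cKO against WT on either day. The median log2 fold changes of these lists on day 5 lay between -0.04 and 0.08, beside 0.01 over all genes. Between day 3 and day 5 of WT, Hsd17b10, a subunit of the enzyme that cuts the 5′ ends of mitochondrial tRNAs, was lower by a log2 fold change of -0.47 (SE 0.11, adjusted p = 0.0411). It was the 1 factor of 28 called there, and 2 of the 35 nuclear subunits of complexes III and IV and ATP synthase were also lower, against 2.04% of all genes.

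On day 8, IFNγ was compared with no treatment in either genotype. In WT, mt-Nd2 had 415, 471 and 492 CPM without IFNγ and 289, 268 and 256 CPM with it. The groups did not overlap, and mt-Nd2 was at 0.59 times the untreated level (adjusted p = 0.0683, log2 fold change -0.76, SE 0.30). The level of mt-Co1 was 4124, 4903 and 4942 CPM without IFNγ and 5671, 5880 and 6871 CPM with it (adjusted p = 0.534, log2 fold change 0.40, SE 0.47). In this model 0 of 7 genes were called although 40.1% of all genes were, with 1 at an unadjusted p under 0.05 and 1 in DESeq2. The model shares its spread with cKO day 8 IFNg replicate 1, the library that stood apart. Without that library 3 genes were called in WT, mt-Nd2 with -0.78 (adjusted p = 0.00156), mt-Nd1 with -0.36 (adjusted p = 0.0445) and mt-Co1 with 0.38 (adjusted p = 0.0193), and the same 3 were called with only the WT groups in the model. On CPM without TMM scaling mt-Nd2 still separated, with 519 to 611 CPM without IFNγ and 239 to 283 CPM with it, whereas mt-Co1 overlapped, with 5159 to 6136 and 5561 to 6401 CPM. The mix of the 13 genes shifted in a way that no scaling touches, since mt-Co1 went from 55.5 to 56.5% of their counts to 63.4 to 69.2%, and mt-Nd2 from 5.43 to 5.61% to 2.58 to 3.23%. The summed level was 8325 ± 810 CPM without and 9219 ± 617 CPM with IFNγ (SD, n = 3), a log2 difference of 0.15 that turned to -0.21 without TMM scaling. The neutrophil markers, of which 1 of 8 was detected over 1 CPM, were at 20.9 to 35.0 CPM without and 14.9 to 16.5 CPM with IFNγ, and their part was not tested.

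With IFNγ in the cKO, mt-Nd1 and mt-Cytb were lower. For mt-Nd1 the untreated libraries had 1001 and 756 CPM and those with IFNγ 410 and 380 CPM (adjusted p = 0.00183, log2 fold change -1.15, SE 0.20). For mt-Cytb the values were 786 and 641 CPM without and 363 and 411 CPM with IFNγ (adjusted p = 0.00509, log2 fold change -0.88, SE 0.19). These 2 of 7 genes compare with 16.4% of all genes called lower. TMM scaling moved the values of replicate 1, which on plain CPM had 188 CPM of mt-Nd1 and 166 CPM of mt-Cytb, against 338 and 366 CPM in replicate 2. Proliferation genes went from 1643 and 1656 CPM to 743 and 777 CPM and progenitor markers from 44.9 and 58.0 CPM to 22.1 and 26.0 CPM, and their part was not tested. In the other 5 genes the cKO libraries with IFNγ did not resemble each other: replicate 1 had 701 CPM of mt-Co1, 1505 CPM of mt-Nd5 and 752 CPM of mt-Nd6, and replicate 2 had 4255, 416 and 41.1 CPM. Without replicate 1, 6 of 7 genes were called lower, among them mt-Nd1 with -1.18 (adjusted p = 0.00122), mt-Cytb with -0.77 (adjusted p = 0.00598) and mt-Nd2 with -1.70 (adjusted p = 0.000351), with 1 library left in that group and the spread taken from the other groups. Without replicate 2, 5 were called, among them mt-Nd6 higher with 3.22 (adjusted p = 1.04e-05). Without cKO day 8 untreated replicate 1 the count was 1, and with only the groups compared in the model it was 0. The difference of the IFNγ effect between genotypes called 0 of 7 genes in edgeR against 0% of all genes, with 2 at an unadjusted p under 0.05 and 0 in DESeq2. Without cKO day 8 IFNg replicate 2 the count was 5.

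Between genotypes on day 8 without IFNγ, the 7 genes had log2 fold changes of cKO against WT from -0.38 (mt-Nd1, SE 0.18) to -0.18 (mt-Cytb, SE 0.17). The groups separated in mt-Nd1, with 1058, 1142 and 1232 CPM in WT, and in mt-Co1, with 4124, 4903 and 4942 CPM in WT against 3754 and 3829 CPM in cKO. Of the 7, edgeR called 0 against 0.612% of all genes, with 0 at an unadjusted p under 0.05 and 0 in DESeq2. With IFNγ, 2 of 7 genes were lower in cKO, against 1.63% of all genes called lower. They were mt-Nd1 (924, 783 and 1005 CPM in WT, adjusted p = 0.00976, log2 fold change -1.20, SE 0.19) and mt-Cytb (723, 679 and 695 CPM in WT, adjusted p = 0.0261, log2 fold change -0.85, SE 0.17). Without cKO day 8 IFNg replicate 1, the log2 fold change was -1.23 for mt-Nd1 (adjusted p = 0.00579), -0.74 for mt-Cytb (adjusted p = 0.0239) and -0.50 for mt-Co1 (adjusted p = 0.0937), against -1.31 for mt-Co1 with it. The count was then 6, and it was 5 without replicate 2, 1 without WT day 8 IFNg replicate 1 or replicate 2 and 0 without WT day 8 IFNg replicate 3 or with only the groups compared in the model. Stromal markers summed to 54.6 and 349 CPM in the cKO libraries with IFNγ and 8.36 to 49.6 CPM in WT, progenitor markers to 22.1 and 26.0 CPM against 3.87 to 21.0 CPM, and proliferation genes to 743 and 777 CPM against 901 to 1520 CPM, and their part was not tested.

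**Figure D3:**
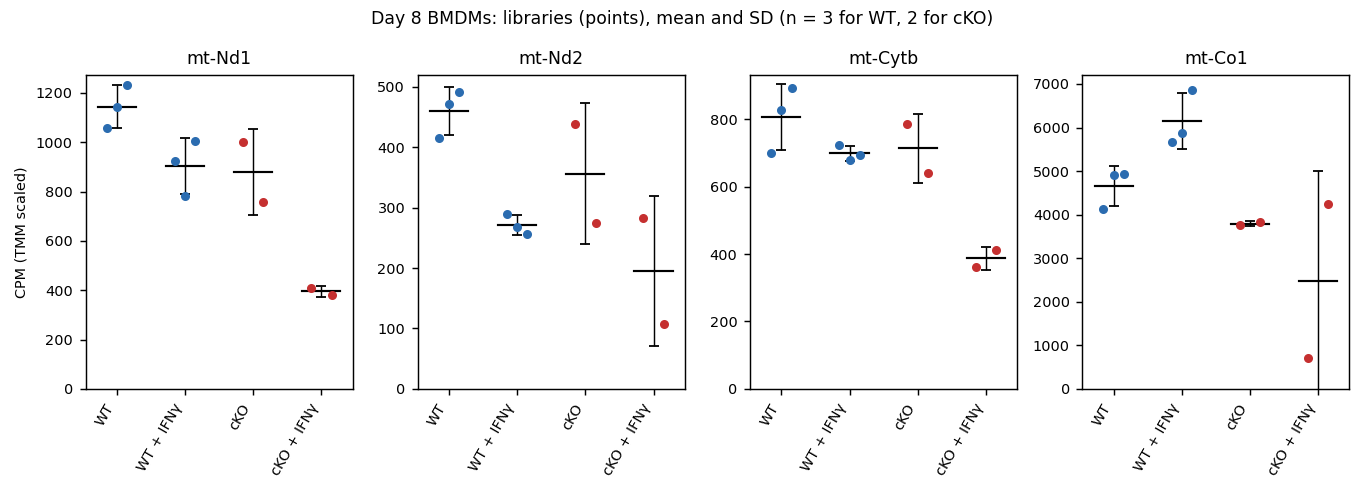
Level (CPM, TMM scaled, y axis) of mt-Nd1, mt-Nd2, mt-Cytb and mt-Co1 in day 8 BMDMs by genotype and IFNγ treatment (x axis), with points for libraries and bars for mean and SD (n = 3 for WT, 2 for cKO). The WT libraries have 415 to 492 CPM of mt-Nd2 without IFNγ and 256 to 289 CPM with it, and the cKO libraries with IFNγ lie at 701 and 4255 CPM of mt-Co1.

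Nuclear genes of the same machinery were also tested with IFNγ. In WT 8 of 36 complex I subunits and 17 of 35 subunits of complexes III and IV and ATP synthase were called higher and none lower, against 20% of all genes called higher and 20.1% lower, with median log2 fold changes of 0.39 and 0.51 beside -0.01 over all genes. Of 26 tested transcription and RNA processing factors 5 were higher and 7 lower, and of 8 copying factors 1 was higher and 3 lower. Ptcd2, a pentatricopeptide protein that binds mitochondrial RNA, rose by 1.56 (SE 0.25, adjusted p = 0.000796), and Pnpt1, the exonuclease of the mitochondrial RNA degradosome, by 1.45 (SE 0.27, adjusted p = 0.00202). Polg, the mitochondrial DNA polymerase, fell by 0.62 (SE 0.19, adjusted p = 0.0251), and Ssbp1, the protein that binds single-stranded mitochondrial DNA, fell by 0.51 (SE 0.18, adjusted p = 0.0411). In the cKO, 2 of 36 and 9 of 35 nuclear subunits were higher, and 1 factor was higher and 8 lower of 26, against 17.2% of all genes called higher and 16.4% lower. Among those called there were Tfb1m, a mitochondrial rRNA methyltransferase, with -1.70 (SE 0.38, adjusted p = 0.00711), and the RNA-binding proteins Fastkd2 with -1.32 (SE 0.20, adjusted p = 0.000804) and Fastkd3 with -1.14 (SE 0.23, adjusted p = 0.00397). Of the 8 copying factors, Rnaseh1, which removes RNA primers, was higher by 0.97 (SE 0.19, adjusted p = 0.00352) and Top1mt, the mitochondrial topoisomerase, lower by -1.68 (SE 0.51, adjusted p = 0.0279). Fastkd2 was also lower in cKO than in WT under IFNγ (-0.80, SE 0.19, adjusted p = 0.0434). These values of nuclear genes in cKO with IFNγ are given only with cKO day 8 IFNg replicate 1, the library that stood apart, included. The WT values come from the same model and share its spread.

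The antibody experiment compared BMDMs lysed on day 6 after no antibody, control antibody or IFNAR1 antibody. In WT, the control antibody group was the low one. For mt-Co1, WT had 4268, 4447 and 3399 CPM without antibody, 2254, 1214 and 1472 CPM with control antibody and 5599, 6037 and 3976 CPM with IFNAR1 antibody. For mt-Nd6 the values were 174, 164 and 154 CPM, then 77.6, 30.3 and 29.0 CPM, then 243, 97.2 and 174 CPM. The control antibody libraries lay below all others in both genes. Against no antibody, mt-Co1 was lower by a log2 fold change of -1.29 (SE 0.25, adjusted p = 0.0097), mt-Nd5 of -1.21 (SE 0.28, adjusted p = 0.0199) and mt-Nd6 of -1.84 (SE 0.38, adjusted p = 0.0127). These 3 of 7 genes stand beside 5.63% of all genes called lower. The count was 0 without WT control antibody replicate 2 or without replicate 3, and 2 without WT no antibody replicate 3. The proliferation genes moved the same way, from a summed 1128 to 1289 CPM without antibody to 284 to 593 CPM with control antibody, and their part was not tested.

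Against control antibody, IFNAR1 antibody gave higher levels of the same 3 genes in WT. The log2 fold changes were 1.66 for mt-Co1 (SE 0.26, adjusted p = 0.00302), 1.29 for mt-Nd5 (SE 0.28, adjusted p = 0.0126) and 1.91 for mt-Nd6 (SE 0.38, adjusted p = 0.00761), for 3 of 7 genes against 6.83% of all genes called higher. The same WT control antibody libraries serve both comparisons, so these are not independent of each other. The proliferation genes again moved with them, at 284 to 593 CPM with control antibody and 1063 to 2595 CPM with IFNAR1 antibody, and their part was not tested. Without WT control antibody replicate 2 the count was 1, without WT IFNAR1 antibody replicate 2 it was 5, and with only the groups compared in the model it was 0. The libraries with IFNAR1 antibody were uneven: WT replicates 1 and 2 and cKO replicate 1 had 70.8%, 82.6% and 72.9% of the counts of the 13 genes on mt-Co1 and 3.4%, 2.06% and 3.09% on mt-Cytb, and in the other 3 mt-Co1 took 54.1 to 54.4% and mt-Cytb 9.33 to 9.95%. In those 3 libraries mt-Rnr2, the large ribosomal RNA of the mitochondrion, was at 12889, 5557 and 13488 CPM, against 3732 to 4777 CPM in the rest of the IFNAR1 libraries. Why they differ was not tested.

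In the cKO the log2 fold changes of control antibody against none lay between -1.32 and -0.16. With control antibody mt-Co1 had 4079, 3053 and 3434 CPM against 4150, 3750 and 3885 CPM without antibody, and the groups overlapped. For mt-Nd6 the control antibody libraries had 88.7, 39.9 and 55.7 CPM against 131, 170 and 162 CPM without antibody, a log2 fold change of -1.32 (SE 0.38, adjusted p = 0.0991). Here 0 of 7 genes were called against 1.46% of all genes, with 1 at an unadjusted p under 0.05 and 1 in DESeq2. With IFNAR1 antibody mt-Nd6 had 215, 168 and 146 CPM and was higher than with control antibody (adjusted p = 0.0357, log2 fold change 1.51, SE 0.38), as 1 of 7 genes against 2.34% of all genes called higher. Proliferation genes were at 273 to 468 CPM with control antibody and 636 to 1486 CPM with IFNAR1 antibody and stromal markers at 157 to 291 and 41.2 to 84.8 CPM, and their part was not tested. The call was lost without cKO control antibody replicate 2 or replicate 3, without cKO IFNAR1 antibody replicate 1 or replicate 2, on strand column 3 of the counts, and when other groups were left out of the model. The difference of the IFNAR1 antibody effect between genotypes called 0 of 7 genes in edgeR against 0% of all genes, with 1 at an unadjusted p under 0.05, mt-Co1 (log2 difference -1.22, SE 0.35), and 0 in DESeq2.

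Between genotypes with control antibody, mt-Co1 and mt-Nd5 were higher in cKO. This comparison uses the same WT control antibody libraries, which lay below all other WT libraries of the experiment in both genes. It is therefore not independent of the comparisons within WT. In cKO, mt-Co1 had 3053 to 4079 CPM with control antibody and 3750 to 4150 CPM without antibody. For mt-Nd5 the cKO had 606 to 896 and 923 to 1017 CPM. For mt-Nd5 WT had 500, 240 and 250 CPM and cKO 896, 606 and 729 CPM, which do not overlap (adjusted p = 0.027, log2 fold change 1.17, SE 0.28). For mt-Co1 it was 1.10 (SE 0.25, adjusted p = 0.0207). These 2 of 7 genes compare with 2.88% of all genes called higher. Both calls were lost without WT control antibody replicate 2 or replicate 3 and without cKO control antibody replicate 1 or replicate 3, and with only the groups compared in the model 4 genes were called. Neutrophil markers separated these libraries, with 104 to 213 CPM in cKO and 60.6 to 78.4 CPM in WT, as did progenitor markers with 14.8 to 19.7 against 3.94 to 7.49 CPM and B cell markers with 6.69 to 7.68 against 1.98 to 4.48 CPM. Stromal markers overlapped, at 157 to 291 and 12.5 to 219 CPM. The part of these markers was not tested. Without antibody 0 of 7 genes were called against 7.1% of all genes, with 0 at an unadjusted p under 0.05 and 0 in DESeq2, and the largest difference was that of mt-Cytb, with 517, 272 and 266 CPM in WT and 520, 727 and 678 CPM in cKO (log2 fold change 0.87, SE 0.48). With IFNAR1 antibody 0 of 7 were called against 0.675% of all genes, with 0 at an unadjusted p under 0.05 and 0 in DESeq2, and log2 fold changes lay between -0.12 (mt-Co1) and 0.50 (mt-Cytb).

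**Figure D4:**
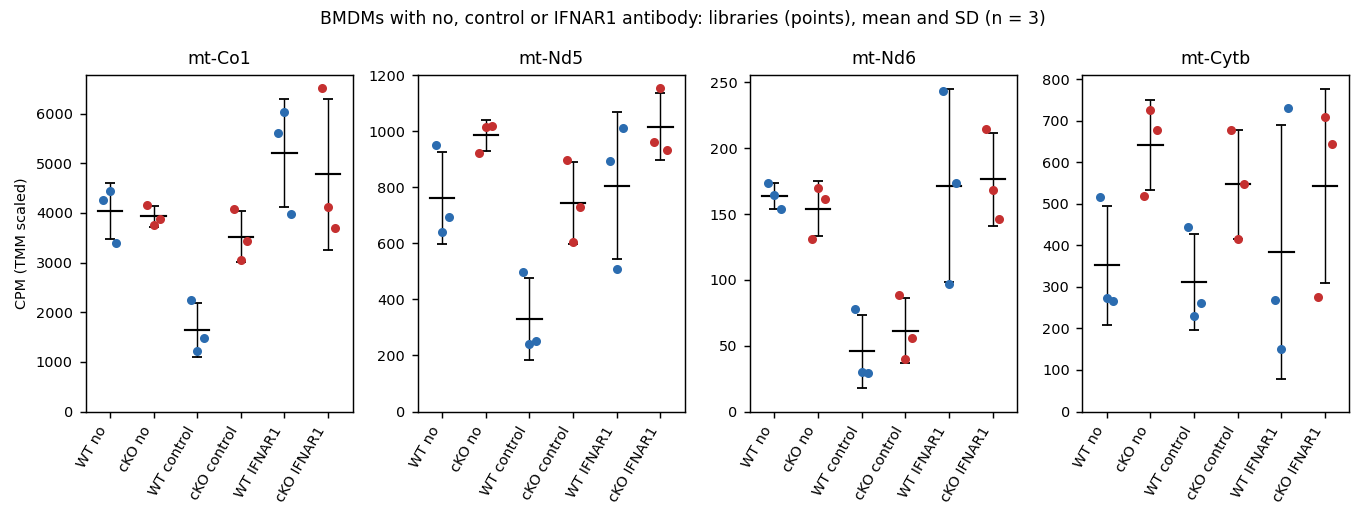
Level (CPM, TMM scaled, y axis) of mt-Co1, mt-Nd5, mt-Nd6 and mt-Cytb in BMDMs given no antibody, control antibody or IFNAR1 antibody (x axis) in WT and cKO, with points for libraries and bars for mean and SD (n = 3). In mt-Co1 the WT libraries with control antibody lie at 1214 to 2254 CPM, below the other WT libraries at 3399 to 6037 CPM, while in mt-Cytb WT libraries of the antibody groups overlap.

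Few nuclear factors were called in the antibody experiment. Trmt10c, a subunit of the enzyme that cuts mitochondrial tRNAs out of the precursor, was higher in cKO with control antibody (adjusted p = 0.00436, log2 fold change 1.24, SE 0.23). Pnpt1 was higher in cKO without antibody (adjusted p = 0.0238, log2 fold change 0.67, SE 0.16). These were the 2 calls among 28 factors, 1 per comparison, against 2.88% and 3.39% of all genes called higher, and no factor was called between antibodies in either genotype. Of the nuclear subunits of the chain, 1 of 36 of complex I was lower in cKO with control antibody (1.57% of all genes) and 1 in WT with IFNAR1 antibody against control antibody (3.06%). Of the 35 of complexes III and IV and ATP synthase, 1 was lower in cKO without antibody (3.72%) and 1 in WT with control antibody against none (5.63%).

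The double KOs were compared with the 9 cKO libraries of all 3 sets, since the labels do not tie a set to a double KO. The files of H3.3cKO:Irf7KO and of set 3 list 54146 genes. Those of sets 1 and 2, H3.3cKO:StingKO and H3.3cKO:MavsKO list 55536. The part of this difference was not tested. In H3.3cKO:StingKO, which lacks the adaptor of DNA sensing Sting, the mitochondrial genes were lower. The level of mt-Nd2 was 158, 227 and 194 CPM, against 329, 421 (the median) and 531 CPM as the lowest, middle and highest of the cKO libraries. For mt-Nd1 the double KO had 352, 427 and 373 CPM and the cKO 546 to 937 CPM, and for mt-Nd4 the double KO had 114, 139 and 130 CPM and the cKO 220 to 310 CPM. Each double KO library lay below each cKO library in these 3 genes. The log2 fold changes were -1.12 for mt-Nd2 (SE 0.22, adjusted p = 0.000428), -1.08 for mt-Nd4 (SE 0.21, adjusted p = 0.000393), -0.93 for mt-Nd1 (SE 0.20, adjusted p = 0.000833), -0.98 for mt-Cytb (SE 0.21, adjusted p = 0.000714), -0.81 for mt-Nd5 (SE 0.20, adjusted p = 0.00282) and -0.62 for mt-Co1 (SE 0.18, adjusted p = 0.00904). The reverse-strand gene mt-Nd6 had a log2 fold change of -0.58 (SE 0.23, adjusted p = 0.0526) and was not called. In all, 6 of 7 genes were called lower, against 17.2% of all genes. The summed level was 3830 ± 312 CPM (SD, n = 3) in the double KO and 6513 ± 633 CPM (SD, n = 9) in the cKO.

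Between 5 and 7 genes were called in H3.3cKO:StingKO under every alternative run, including each cKO set taken alone. With cKO set 3 alone mt-Co1 was not called (log2 fold change -0.47, adjusted p = 0.0951). Without cKO set 1 replicate 3 or cKO set 3 replicate 3 the count was 7, and without H3.3cKO:StingKO replicate 3 it was 5. The double KO differs from the cKO in Sting and may differ in litter and day of culture, which the labels do not give, so genotype and batch cannot be told apart. Its 3 libraries had 208 to 238 CPM of neutrophil markers and 81.5 to 109 CPM of progenitor markers, within the ranges of the cKO sets, while stromal markers summed to 163 to 200 CPM against 23.1 to 69.3 CPM in the cKO sets and the proliferation genes to 1539 to 1646 CPM against 1846 to 2359 CPM. Their part was not tested.

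In H3.3cKO:MavsKO, which lacks the adaptor of RNA sensing Mavs, the levels overlapped with those of the cKO in each of the 7 genes. The level of mt-Nd2 was 369, 411 and 450 CPM (log2 fold change -0.03, SE 0.21). Here 0 of 7 genes were called against 8.79% of all genes, with 0 at an unadjusted p under 0.05 and 0 in DESeq2, and the farthest from 0 was mt-Nd6 with 0.40 (SE 0.22). In H3.3cKO:Irf7KO, which lacks the interferon regulatory factor Irf7, mt-Nd2 had 359, 384 and 449 CPM (log2 fold change -0.08, SE 0.21). All 7 log2 fold changes lay between -0.08 and 0.12, and 0 of 7 were called against 9.85% of all genes, with 0 at an unadjusted p under 0.05 and 0 in DESeq2. H3f3b was also lower in this double KO than in the cKO sets (71.9 to 147 against 187 to 220 CPM), and its part was not tested.

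**Figure D5:**
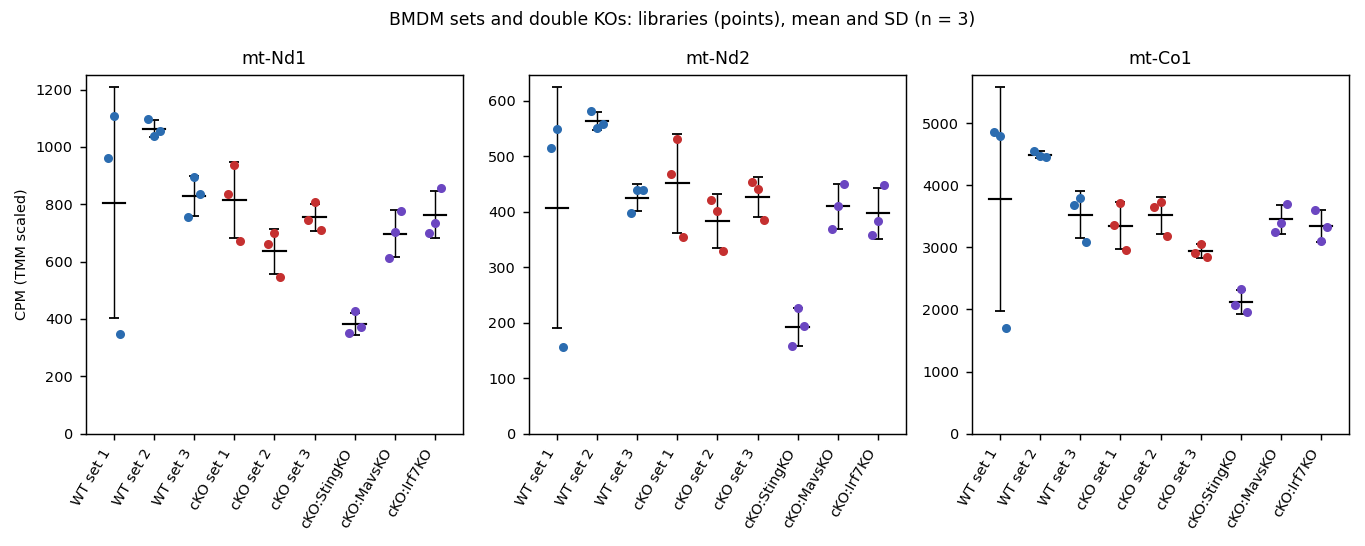
Level (CPM, TMM scaled, y axis) of mt-Nd1, mt-Nd2 and mt-Co1 in the 3 sets of WT and cKO BMDMs and in the double KOs (x axis), with points for libraries and bars for mean and SD (n = 3). H3.3cKO:StingKO lies below all cKO libraries, with mt-Nd2 at 158 to 227 CPM against 329 to 531 CPM, and 1 library of WT set 1 lies far below its replicates.

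Among the nuclear partners in H3.3cKO:StingKO, 9 of 36 complex I subunits were higher and 0 lower, and of the 35 subunits of complexes III and IV and ATP synthase 6 were higher and 4 lower, against 18.9% of all genes called higher and 17.2% lower. Of 28 transcription and RNA processing factors 3 were higher and 12 lower (median log2 fold change -0.19, beside 0.02 over all genes). The termination factor paralogue Mterf1b fell by 1.16 (SE 0.36, adjusted p = 0.0152), Fastkd2 by 0.48 (SE 0.10, adjusted p = 0.000802), the transcription initiation factor Tfb2m by 0.44 (SE 0.10, adjusted p = 0.00123), Pnpt1 by 0.43 (SE 0.10, adjusted p = 0.00139) and the poly(A) polymerase Mtpap by 0.36 (SE 0.08, adjusted p = 0.00065). Mterf1b has a close paralogue, between which counting can split reads. Of the 8 copying factors Ssbp1 fell by 0.39 (SE 0.13, adjusted p = 0.0192) and the primase-polymerase Primpol by 0.29 (SE 0.08, adjusted p = 0.00694). In H3.3cKO:MavsKO 6 of 36 and 5 of 35 nuclear subunits were lower, against 3.24% of all genes. In H3.3cKO:Irf7KO 4 of 36 and 1 of 35 were higher, against 4.36% of all genes, and no factor was called in either double KO.

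The 3 sets allow cKO and WT to be compared again. In set 2 mt-Nd1 had 1097, 1039 and 1054 CPM in WT and 662, 699 and 546 CPM in cKO (adjusted p = 0.0231, log2 fold change -0.74, SE 0.23), and all 7 genes were lower in each cKO library than in each WT library. This was 1 of 7 genes called, against 11.3% of all genes called lower, so the share was close to the background. With only these groups in the model 7 were called, and without WT set 2 replicate 1 or replicate 3 or cKO set 2 replicate 1 or replicate 3 the count was 0. In all 3 sets progenitor markers separated the genotypes, with 75.3 to 85.3 CPM in cKO and 8.47 to 24.8 CPM in WT of set 2, 130 to 158 and 14.6 to 19.5 CPM in set 1 and 102 to 179 and 15.3 to 20.4 CPM in set 3, and their part was not tested. In set 1 mt-Nd1 had 961, 1109 and 347 CPM in WT and 838, 937 and 672 CPM in cKO, and the log2 fold changes lay between -0.18 (mt-Co1) and 0.15 (mt-Nd2), with 0 of 7 called against 34.7% of all genes, 0 at an unadjusted p under 0.05 and 0 in DESeq2. Without WT set 1 replicate 3 the count was 2, mt-Co1 with -0.53 (adjusted p = 0.000575) and mt-Cytb with -0.37 (adjusted p = 0.02), and the fold change of mt-Nd2 turned to -0.23 (adjusted p = 0.252). In set 3 mt-Nd2 had 397, 440 and 439 CPM in WT and 454, 441 and 386 CPM in cKO (log2 fold change 0.01, SE 0.26), and 0 of 7 genes were called against 34.9% of all genes, with 0 at an unadjusted p under 0.05 and 0 in DESeq2. The groups separated only in mt-Co1, with 3687, 3795 and 3089 CPM in WT and 2905, 3060 and 2846 CPM in cKO.

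The nuclear partners were tested in the same sets, with WT set 1 replicate 3, which stood apart, included throughout. Of 36 complex I subunits 8 were lower and 1 higher in set 1, 5 lower in set 2 and 10 lower in set 3, and of 35 subunits of complexes III and IV and ATP synthase 10, 8 and 11 were lower. Over all genes 16.7%, 11.3% and 18% were called lower in sets 1, 2 and 3. The median log2 fold change of complex I lay between -0.22 and -0.21 in the 3 sets, beside -0.05 to -0.01 over all genes. Of 28 factors 8 were higher and 3 lower in set 1 and in set 3, and 1 was higher in set 2, against 18%, 16.9% and 9.74% of all genes called higher in sets 1, 3 and 2. Tbrg4 and Fastkd3, RNA-binding proteins of the FASTK family, were higher in set 3 (0.71, SE 0.12, adjusted p = 6.3e-05, and 0.71, SE 0.13, adjusted p = 0.000107), Mterf2, of the termination factor family, in set 2 (1.48, SE 0.47, adjusted p = 0.0264), and Pnpt1 in set 1 (0.54, SE 0.12, adjusted p = 0.000851), where Hsd17b10 was lower (-0.58, SE 0.14, adjusted p = 0.00269). Of the 8 copying factors Top1mt was higher in set 1 (0.78, SE 0.14, adjusted p = 0.00013), and in set 3 Rnaseh1 was higher (0.37, SE 0.10, adjusted p = 0.00656) while Polg2, the accessory subunit of the DNA polymerase, was lower (-0.43, SE 0.15, adjusted p = 0.0263).

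In peritoneal macrophages, which mature in the body, the genotypes did not separate in any of the 7 genes. WT had 153, 97.8 and 92.7 CPM of mt-Nd2 and cKO had 88.0, 86.6 and 97.5 CPM (adjusted p = 0.736, log2 fold change -0.33, SE 0.21). The log2 fold changes lay between -0.43 (mt-Nd6) and -0.03 (mt-Co1). In edgeR 0 of 7 genes were called against 0.971% of all genes, with 0 at an unadjusted p under 0.05 and 0 in DESeq2. The filter on low counts let mt-Nd3 pass in this experiment alone, with a log2 fold change of 0.04. The mix differed from that of cultured cells: mt-Co1 took 30.5 to 38.7% of the counts of the 13 genes and mt-Cytb 26.3 to 30.5%, against at most 13.5% for mt-Cytb in the cultured cells, and mt-Nd6 had 11.9 to 24.7 CPM. Because the sources differ on the library kit of these cells, tissue and kit cannot be told apart, and no test was made against cultured cells. Peritoneal macrophage markers were detected for 4 of 4 genes, and 0 of the 4 nuclear lists had a called gene.

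To see whether mt-Nd2 moved apart from the rest, the log2 ratio of its count to the summed counts of the other measured genes was compared between genotypes. On day 3 the ratio was -4.76 ± 0.33 in cKO and -4.29 ± 0.22 in WT (SD, n = 3), a difference of -0.47 that belongs to the choice of the gene and was not tested. In the other 11 comparisons of cKO and WT the difference ran from -0.47 with control antibody to 0.41 with IFNAR1 antibody. In 3 of them, control antibody, set 1 and set 2, the groups separated (two-sided exact permutation test, p = 0.1, the smallest that these group sizes allow), with differences of -0.47, 0.26 and -0.14. After Benjamini-Hochberg adjustment over the 11 comparisons the smallest p of the exact permutation test was 0.367. With these group sizes the test cannot reach 0.05, so it does not bear on whether mt-Nd2 moved apart from the rest in any comparison.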

How the data were processed

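RNA of 81 mouse libraries was sequenced by the authors, trimmed with Cutadapt and aligned to mm10 with STAR, whose deposited read counts per gene hold reads with a single alignment, unstranded and per strand. The unstranded counts were used, with rows that name no gene left out. By the labels 79 libraries were grouped and 2 with conflicting labels left out. Genes passed filterByExpr (smallest count 10, smallest total 15), libraries were scaled by TMM, and edgeR 4.0.16 quasi-likelihood tests in R 4.3.3 were fitted with all groups of an experiment in 1 model and Benjamini-Hochberg adjustment over all genes, with calls at an adjusted p under 0.05. SE is the log2 fold change divided by the root of F. DESeq2 1.42.0, other scalings, filters, strand columns, models with fewer groups, a replicate block and leaving out each library were alternatives, 2 of which were added after seeing the data. Samples with the same number deviated together, with every pair's correlation over 0.1, in 12 of 25 comparisons. In the Results the block is printed beside a result only for these. The section on processing gives each count of members called that changed with the block. The fits were tested on simulated data. Nuclear copies were searched with BLASTN 2.17.0 in GENCODE transcripts of GRCm38. No libraries were duplicates. The members and gene lists were chosen with earlier results of these data known. Named factors are up to 5 per list and group of comparisons, those with the largest called changes, and genes like mt-Nd2 are the 5 with the highest correlation among those whose log2 CPM averaged 3 or more. Depth limits low counts only, since the 7 measured genes had at least 98 reads in every library.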

Additional observations from a re-analysis of the deposited data

Results flagged for a closer look

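In the comparisons below the libraries of cKO and WT did not overlap, with cKO above WT in the antibody experiment and below it elsewhere. H3f3b was at 16.7 to 67.8 CPM in the cKO of the antibody experiment. In the cKO of the time course it was at 149 to 222 CPM, on day 8 at 173 to 325 CPM and in the sets at 187 to 220 CPM. The part of this difference was not tested. The difference between experiments was not tested, and edgeR called mt-Co1 and mt-Nd5 with control antibody, mt-Nd1 and mt-Cytb on day 8 with IFNγ and mt-Nd1 in set 2, and did not call the others. In mt-Co1 and mt-Nd5 the WT libraries with control antibody lay below all other WT libraries of the antibody experiment. Values are log2 fold changes of cKO against WT. For mt-Nd1 it was 1.03 with control antibody, against -0.64 on day 5, -0.38 on day 8 without IFNγ, -1.20 on day 8 with IFNγ and -0.74 in set 2. For mt-Nd5 it was 1.17 with control antibody, against -0.64 on day 5 and -0.41 in set 2. For mt-Cytb it was 0.87 without antibody, against -0.69 on day 5, -0.85 on day 8 with IFNγ and -0.43 in set 2. Without antibody the highest WT library of mt-Cytb had 517 CPM and the lowest cKO library 520 CPM. WT replicates 2 and 3 had 272 and 266 CPM. In these replicates mt-Co1 took 71.3% and 63.7% of the counts of the 13 protein genes and mt-Cytb 4.37% and 4.98%. In WT replicate 1 the shares were 59.2% and 7.17%, and in cKO mt-Cytb took 7.5 to 10.3%. The part of this mix was not tested. For mt-Co1 it was 1.10 with control antibody, against -0.42 on day 5, -0.30 on day 8 without IFNγ, -1.31 on day 8 with IFNγ, -0.35 in set 2 and -0.26 in set 3. Without cKO day 8 IFNg replicate 1, which had 701 CPM of mt-Co1 against 4255 CPM in replicate 2, the mt-Co1 value on day 8 with IFNγ was -0.50.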

How the results depend on the processing

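Each count of members called was recomputed under other settings, 418 combinations in all, of which 352 stayed within 1.5 times, 36 gained and 30 lost calls. Nothing is read from the counts from day 3 to day 5, here and below, since the genes were chosen on the day 3 libraries. Without the filter on low counts the number called was 3 in WT day 5 against day 3 (0 before), 6 in cKO day 5 against day 3 (3), 4 on day 8 with IFNγ between genotypes (2), 1 for IFNγ in WT (0), 5 for IFNγ in cKO (2), 2 for the difference of the IFNγ effect (0), 1 for control antibody in cKO (0), 7 in set 2 (1) and 1 in H3.3cKO:MavsKO (0). With only the groups compared it was 6, 0, 0, 3 and 0 for the first 5 of these, and 4 between genotypes with control antibody (2), 0 for IFNAR1 antibody in WT (3) and in cKO (1), 3 for control antibody in cKO, 7 in set 2 and 1 in H3.3cKO:MavsKO. With the replicate block it was 1 between genotypes on day 5 (0), 3 in WT and 6 in cKO from day 3 to day 5, 1 in WT from day 5 to day 7 (0), 1 on day 8 with IFNγ between genotypes and 1 for control antibody in cKO, and no other count of members called changed with the block. DESeq2 called 1 on day 5, 5 and 6 from day 3 to day 5, 1 in WT from day 5 to day 7, 1 for IFNγ in WT and 1 for control antibody in cKO. Strand column 3 gave 0 for IFNAR1 antibody in cKO. A crossed block of the cKO IFNγ libraries, added after seeing the data, called 2. The cause of these changes was not tested.

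Leaving out 1 library gave 0 to 6 members called in cKO from day 3 to day 5, 0 to 6 between genotypes on day 8 with IFNγ, 0 to 3 for IFNγ in WT, 1 to 6 in cKO and 0 to 5 for the difference, 0 to 2 between genotypes with control antibody, 1 to 5 for IFNAR1 antibody in WT and 0 to 1 in cKO, 0 to 3 for control antibody in WT, 0 to 2 in set 1 and 0 to 1 in set 2. The summed level then differed by -1.10 to -0.69 between genotypes on day 8 with IFNγ and by -0.80 to -0.39 for the difference of the IFNγ effect, in log2. The ratio of mt-Nd2 to the other genes ran from -0.17 to 0.049 on day 7, -0.38 to 0.16 on day 8 without IFNγ, -0.65 to 1.22 with it and -0.021 to 0.79 with IFNAR1 antibody. The log2 fold change of mt-Nd2 ran from -0.40 to 0.034 on day 7, -1.30 to 0.035 on day 8 with IFNγ, -0.92 to 0.40 for the difference of the IFNγ effect, -0.022 to 0.70 with IFNAR1 antibody, -0.61 to 0.11 for the difference of that antibody's effect, -0.23 to 0.43 in set 1, -0.043 to 0.074 in set 3 and -0.11 to 0.038 in H3.3cKO:MavsKO.

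Without TMM scaling the summed level differed by 0.92 in WT from day 3 to day 5, -1.48 between genotypes with IFNγ on day 8, -0.21 for IFNγ in WT, -1.38 in cKO, -1.16 for their difference and -0.32 in set 2. With mt-Nd1 alone as denominator the ratio of mt-Nd2 was -0.064 without antibody, -0.12 with IFNAR1 antibody and 0.19 in set 2. The log2 fold change of mt-Nd2 turned to -0.0012 in set 3 with the block, and with cKO set 2 alone to 0.096 in H3.3cKO:MavsKO and 0.050 in H3.3cKO:Irf7KO. Over all genes the number called moved by over 1.5 times in 157 of 418 combinations, for example from 6528 to between 4069 and 7500 in H3.3cKO:StingKO, from 1700 to between 0 and 3086 for IFNAR1 antibody in WT and from 451 to between 131 and 741 between genotypes on day 5.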

Other observations

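The labels of 2 cKO libraries of day 8 conflict on IFNγ, and these libraries entered no comparison. On CPM without TMM scaling, the library titled with IFNγ (9674853 counts) had 386 CPM of mt-Nd2, 1095 of mt-Nd1, 903 of mt-Cytb and 4790 of mt-Co1. The library titled without IFNγ (10498769 counts) had 141 CPM of mt-Nd2, 468 of mt-Nd1, 433 of mt-Cytb and 3985 of mt-Co1.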
